A study of Mus musculus with 60 samples.

Results

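Cholesterol is built from acetyl-CoA through the mevalonate pathway, and the genes of that pathway are switched on together by the transcription factor SREBP-2 when sterols in the endoplasmic reticulum are low. Insig proteins hold SREBP-2 back in that membrane when sterols are plentiful. Liver is known as a main site of synthesis, and squamous epithelia also make cholesterol for their barrier. The genes examined were Srebf2, which encodes SREBP-2, Insig1, which encodes one of the retention proteins, and the enzyme genes Hmgcs1, Idi1, Fdps, Sqle and Lss. Members were chosen by gene symbol, through the RefSeq accession that the scanner files give for each probe. These 7 genes had 8 of the 55681 probes, since Srebf2 had 2, and the array named 20018 gene symbols in all. Where 1 value per gene was needed, the brightest probe of the gene was used. All 7 genes were above the detection filter in each of the 3 tissues, and their brightest probes were well above background in 414 of 420 array values.

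Each of 20 males of the Muta Mouse, aged about 10 weeks, gave RNA from lung, liver and forestomach. Muta Mouse is a transgenic strain that carries lacZ in every cell and is used in mutation tests. Benzo(ghi)perylene (BghiP), a polycyclic aromatic hydrocarbon, was dissolved in olive oil and gavaged daily over 28 days. Daily doses in mg/kg-bw were 0 (D0, olive oil alone), 6.25 (D1), 12.5 (D2) and 25 (D3), with 5 mice each, and necropsy followed the last gavage by 72 hours. Each value below compares tissue signal (Cy5) with that of a common mouse reference RNA (Cy3) as a log2 ratio, so that levels can be compared between samples of a gene but not between genes.

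Between 35.0% and 58.7% of probes were well above background on a lung array, between 36.3% and 48.4% on a liver array, and between 21.4% and 53.4% on a forestomach array. The tissue labels were checked with markers, and in D0 mice 6 of 6 lung markers were highest in lung, 6 of 6 liver markers in liver and 5 of 6 squamous markers in forestomach. In the lung of D0 mouse 1, skeletal muscle markers had a mean log2 ratio of 4.43 against at most 0.44 in the other 19 lungs, and squamous markers stood at 4.32 against at most 0.10. Fat cell markers in the forestomach of D0 mouse 5 stood at 5.11, above the 0.06 to 3.21 of the others. The lung of D3 mouse 20 had liver markers at 4.57, against 0.10 to 0.81 in the other 19 lungs, and the forestomach of D0 mouse 2 had lung markers at 5.02, against 0.58 to 2.02. Liver markers spread over the forestomach arrays without such a gap, from 0.00 to 5.10. Glandular stomach markers (5 of 6 had a probe) fell into separate ranges over the forestomach arrays, with 12 arrays between 3.42 and 7.29 and 8 between 0.10 and 1.32. Lung and forestomach shared 5 slides and liver had 3 of its own, and on every slide the dose coincided with the array column, so that dose and column cannot be told apart.

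The start-site windows of 3 of the genes are shown because Hmgcs1 and Lss correlated between livers whereas Insig1 passed with neither. Each runs 5′ to 3′ from 250 bases before the start site to 50 bases after it (RefSeq, GRCm38.p6), and capitals mark 3 motifs searched on both strands, which did not overlap. These were the sterol regulatory element TCACNCCAC, bound by SREBP, the CCAAT box CCAAT, bound by NF-Y, and the GC box GGGCGG, bound by Sp1.
Hmgcs1 (chr13:119690101-119690400, plus strand): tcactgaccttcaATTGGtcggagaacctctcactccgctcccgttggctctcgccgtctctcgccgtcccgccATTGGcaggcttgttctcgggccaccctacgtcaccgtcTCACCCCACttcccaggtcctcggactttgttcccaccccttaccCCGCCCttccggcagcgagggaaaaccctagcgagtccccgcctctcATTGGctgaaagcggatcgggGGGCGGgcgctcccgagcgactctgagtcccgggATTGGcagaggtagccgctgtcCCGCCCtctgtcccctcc
Lss (chr10:76531355-76531654, plus strand): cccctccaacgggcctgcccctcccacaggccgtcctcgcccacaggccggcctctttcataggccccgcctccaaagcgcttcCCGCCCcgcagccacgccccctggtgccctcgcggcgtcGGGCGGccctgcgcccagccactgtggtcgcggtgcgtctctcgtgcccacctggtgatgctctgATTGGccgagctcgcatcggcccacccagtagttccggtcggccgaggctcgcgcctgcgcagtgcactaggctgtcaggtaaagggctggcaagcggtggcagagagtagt
Insig1 (chr5:28071162-28071461, plus strand): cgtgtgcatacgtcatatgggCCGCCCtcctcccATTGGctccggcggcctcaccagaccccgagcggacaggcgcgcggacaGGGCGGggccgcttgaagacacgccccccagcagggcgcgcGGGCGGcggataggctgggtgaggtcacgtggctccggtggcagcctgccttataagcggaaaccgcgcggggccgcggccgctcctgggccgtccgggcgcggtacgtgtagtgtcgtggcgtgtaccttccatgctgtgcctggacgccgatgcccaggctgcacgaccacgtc

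Windows were found for 5 of the 7 genes (Hmgcs1, Idi1, Insig1, Srebf2 and Lss). The sterol regulatory element as spelled was in 1 of the 5, that of Hmgcs1, where TCACCCCAC lay on the plus strand from base -137 to base -129. Among all 32851 windows of the same length, 1.24% held it. The CCAAT box was in 5 of the 5 and in 37.4% of all windows, and the GC box was in 5 of the 5 and in 35.7% of all windows. Lss held its CCAAT box from base -62 to base -58, and Insig1 from base -216 to base -212. A match describes the letters of the window and not a bound site. The exact search passes over near matches, such as TCACCCCAT in the window of Srebf2, which differs in 1 letter.

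The main contrast among these genes was between tissues. In D0 mice the 5 enzyme genes were lower in lung than in liver, with log2 differences from -3.29 (Fdps) to -2.13 (Hmgcs1), and lower in lung than in forestomach, with differences from -1.96 (Sqle) to -1.17 (Idi1). Insig1 was high in liver alone among the 3 tissues, whereas Srebf2 was highest in forestomach and overlapped between lung and liver. Since these were whole tissues, fewer cells of a type and less RNA per cell cannot be told apart.

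Srebf2, the regulator itself, had D0 values from -1.16 to -0.60 in lung, from -1.08 to -0.57 in liver and from 0.00 to 0.53 in forestomach. The lung and liver values overlapped, and none of them reached the forestomach range. Its mean was -0.93 ± 0.23 (SD, n = 5) in lung, -0.83 ± 0.21 in liver and, above both, 0.17 ± 0.21 in forestomach. The difference was -1.10 ± 0.13 (SE; limma, adjusted p = 4.7e-10) for lung minus forestomach, and liver was 2.01-fold below forestomach (adjusted p = 2.6e-09). Lung and liver differed by -0.10 ± 0.13 (adjusted p = 0.54), with a 95% interval from -0.36 to 0.17. The dimmer probe of Srebf2 was well above background on 35 of 60 arrays, and among D0 mice on 1 of 5 in forestomach and 3 of 5 in each of lung and liver. Its differences were smaller, at -0.45 ± 0.12 (adjusted p = 0.0015) for lung minus forestomach and -0.20 ± 0.12 (adjusted p = 0.17) for liver minus forestomach, and rest on signals near background.

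Insig1, the sterol-dependent brake on SREBP processing, had D0 values from 2.59 to 3.41 in liver, from -0.36 to -0.06 in lung and from -0.22 to 0.18 in forestomach. The liver values lay above all others, and the lung and forestomach ranges overlapped. The mean was 3.04 ± 0.37 (SD, n = 5) in liver, -0.23 ± 0.13 in lung and -0.03 ± 0.18 in forestomach. Liver was 9.61-fold above lung (limma, adjusted p = 7.8e-28) and 8.39-fold above forestomach (adjusted p = 1.3e-26). Lung and forestomach differed by -0.19 ± 0.14 (SE; adjusted p = 0.23). On the log2 scale lung minus liver was -3.26 and became -3.90 with processed signals, and liver minus forestomach was 3.07 and became 3.68.

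Hmgcs1 makes HMG-CoA, the substrate of the rate-limiting reductase of the pathway. Its D0 values ran from -0.03 to 0.58 in lung, from 0.94 to 1.76 in forestomach and from 1.45 to 3.00 in liver. Lung lay below both other tissues without overlap, while the forestomach and liver ranges overlapped. The differences were -2.13 ± 0.26 (SE; limma, adjusted p = 2.5e-10) for lung minus liver, -1.29 ± 0.26 (adjusted p = 2.9e-05) for lung minus forestomach and 0.84 ± 0.26 (adjusted p = 0.0043) for liver minus forestomach. With both channels quantile normalized over all arrays, the last of these was 0.55 (adjusted p = 0.083) and no longer passed the test.

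Idi1 and Fdps act next, on the isoprenoid units. Idi1, the isopentenyl diphosphate isomerase, stood at 0.26 ± 0.10 (SD, n = 5) in D0 lung, 1.44 ± 0.85 in forestomach and 3.36 ± 0.36 in liver. Its forestomach values ran from 0.45 to 2.34 and its lung values from 0.11 to 0.37, so that the ranges did not touch although the lowest forestomach mouse came close. Liver exceeded lung 8.56-fold (limma, adjusted p = 1.4e-14) and forestomach 3.79-fold (adjusted p = 2.5e-08). Fdps, the farnesyl diphosphate synthase, stood at -0.69 ± 0.25 in D0 lung, 1.22 ± 0.53 in forestomach and 2.60 ± 0.20 in liver. Its 3 tissue ranges did not overlap, and liver was 9.79-fold above lung (adjusted p = 2.0e-21) and 2.60-fold above forestomach (adjusted p = 1.6e-08).

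Sqle and Lss make and close the squalene epoxide, the steps from squalene to lanosterol. Sqle stood at -1.86 ± 0.34 (SD, n = 5) in D0 lung, 0.09 ± 0.49 in forestomach and 0.59 ± 0.37 in liver. Lung was 5.49-fold below liver (limma, adjusted p = 5.2e-14) and 3.88-fold below forestomach (adjusted p = 2.0e-10). The liver and forestomach values of Sqle overlapped, and their difference of 0.50 ± 0.23 (SE) missed the test (adjusted p = 0.053; 95% interval from 0.05 to 0.95). It passed when D0 liver mouse 5 (0.60), D0 forestomach mouse 4 (0.61) or D0 forestomach mouse 5 (0.63) was left out, and was 0.20 with processed signals (adjusted p = 0.41) and 0.16 without D0 forestomach mice 2 and 3 (adjusted p = 0.63). Lss stood at -1.15 ± 0.25 in lung, 0.42 ± 0.52 in forestomach and 1.80 ± 0.45 in liver, and liver was 7.73-fold above lung (adjusted p = 8.2e-17) and 2.60-fold above forestomach (adjusted p = 6.5e-07). The probe of Lss was well above background on 3 of the 5 D0 forestomach arrays and on 4 of the 5 D0 lung arrays. With processed signals its log2 difference was -3.84 for lung minus liver, against -2.95, and -2.16 for lung minus forestomach, against -1.57.

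**Figure D1:**
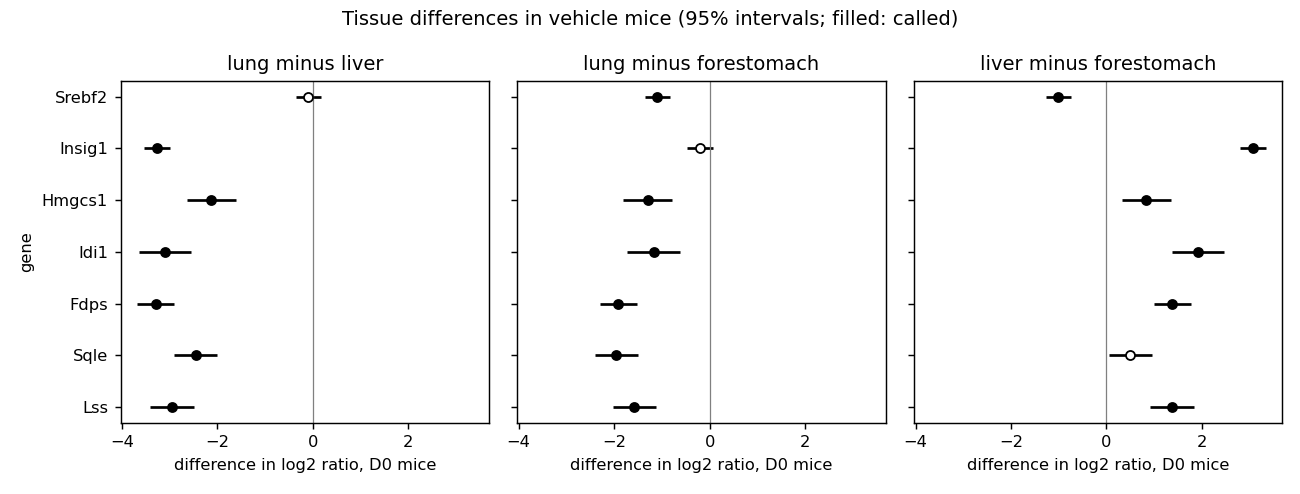
Differences in log2 ratio between tissues of D0 mice for the 7 genes, with 95% intervals from limma and 5 mice per tissue. Filled points passed an adjusted p of 0.05 and 1.5-fold, which were 6 of 7 genes in each of the 3 comparisons. Lung sits to the left of 0 for the 5 enzyme genes against both other tissues.

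In counts, 6 of the 7 genes passed as lower in lung than in liver, against 19.0% of the 33273 probes tested. As lower in lung than in forestomach, 6 of 7 passed, against 14.5% of probes. As higher in liver than in forestomach, 5 of 7 passed, against 18.2% of probes, and 1 of 7 (Srebf2) passed as lower, against 21.0%. The median difference of the 7 genes was -2.95 for lung minus liver, -1.29 for lung minus forestomach and 1.38 for liver minus forestomach, where the median over all probes was 0.06, 0.02 and -0.02. Lung and liver, and liver and forestomach, lay on different slides, so that slide and tissue cannot be told apart there. Lung and forestomach shared slides, and with slide as a block the same number, 6 of 7, passed. On these slides lung arrays lay in row 1 and forestomach arrays in row 2, so that tissue and array row cannot be told apart. The D0 forestomach arrays of mice 2 and 3 had glandular stomach markers at 6.07 and 5.06, against at most 0.49 in mice 1, 4 and 5. Fdps was 0.71 and 0.64 in mice 2 and 3 and between 1.38 and 1.88 in the other D0 mice, and Idi1 was 0.63 and 0.45 against 1.77 to 2.34. Without mouse 2 alone, whose array also carried lung markers, 6 of 7 genes passed in each comparison with forestomach, and Idi1 was at 1.72 and Fdps at 1.25 for liver minus forestomach. Without those 2 arrays the counts stayed at 6 of 7 for lung minus forestomach and for liver minus forestomach, with Idi1 at 1.33 (1.92 with them) and Fdps at 1.02 (1.38 with them) in the latter. Idi1 was then at -1.77 for lung minus forestomach, against -1.17 with them.

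Other genes of the pathway differed between tissues too. Of 18 further sterol synthesis genes, 17 passed the filter on low signals in all 3 tissues. Of these, 15 were lower and 2 higher in lung than in liver, against 19.0% and 25.4% of all probes, with a median difference of -3.12. Among the lower were Tm7sf2 and Msmo1, which act after lanosterol, at -5.85 ± 0.34 (SE) and -3.54 ± 0.23, and Sc5d and Acat2 at -4.84 ± 0.33 and -4.17 ± 0.14. Acat2, which joins acetyl-CoA units ahead of Hmgcs1, was well above background on 3 of the 5 lung arrays. Lbr and Ggps1, named after their values were seen, were higher in lung, by 1.63 ± 0.18 and 1.25 ± 0.23. Lbr also encodes a lamin receptor, and Ggps1 leads from farnesyl diphosphate to protein prenylation rather than to sterols. For lung minus forestomach 14 of the 17 were lower and 1 higher, against 14.5% and 18.8% of all probes. For liver minus forestomach 11 were higher and 1 lower, against 18.2% and 21.0%. In the opposite direction the list was thus below the share of all probes. The remaining gene, Idi2, passed the filter through forestomach alone, which fixes its direction.

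Of the 5 genes of SREBP processing listed beside Srebf2 and Insig1, 3 were lower in lung than in liver and 1 higher, against 19.0% and 25.4% of all probes, so that the 1 higher was near the background. The lower ones were Insig2, the other retention protein, at -3.27 ± 0.20 (SE), Srebf1, which encodes SREBP-1, at -2.36 ± 0.18, and Scap, the escort of SREBP, at -1.78 ± 0.12. Mbtps1, the site-1 protease, was higher in lung by 0.83 ± 0.13. Against forestomach, liver was higher for Insig2 (3.40 ± 0.20), Srebf1 (2.71 ± 0.18) and Scap (1.35 ± 0.12), 3 of 5 against 18.2% of all probes. None of the 5 passed as lower in liver than in forestomach, as Srebf2 did.

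The dose comparisons asked whether BghiP moved these genes in any tissue. No member passed at any dose in lung, liver or forestomach, which was 0 of 63 comparisons (limma, smallest adjusted p = 0.46). Among all probes the share called was 0.0% at each dose in each tissue. The study's own permutation test, at the same adjusted p and fold change, called genes for BghiP at each dose in each tissue. The 0.0% therefore belongs to the test used here, and 0 of 63 does not set the members apart from other probes. At an unadjusted p under 0.05, 1 of the 63 comparisons was found, that of Insig1 in lung at D2. With slide as a block there were 4 of 63 (limma, smallest adjusted p = 0.22), and again 0 passed. The unadjusted counts stand without the share of all probes and are not read as a result about these genes. The 95% interval of the change reached 1.5-fold in 18 of the 63 comparisons, so that changes of that size were not resolved there.

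**Figure D2:**
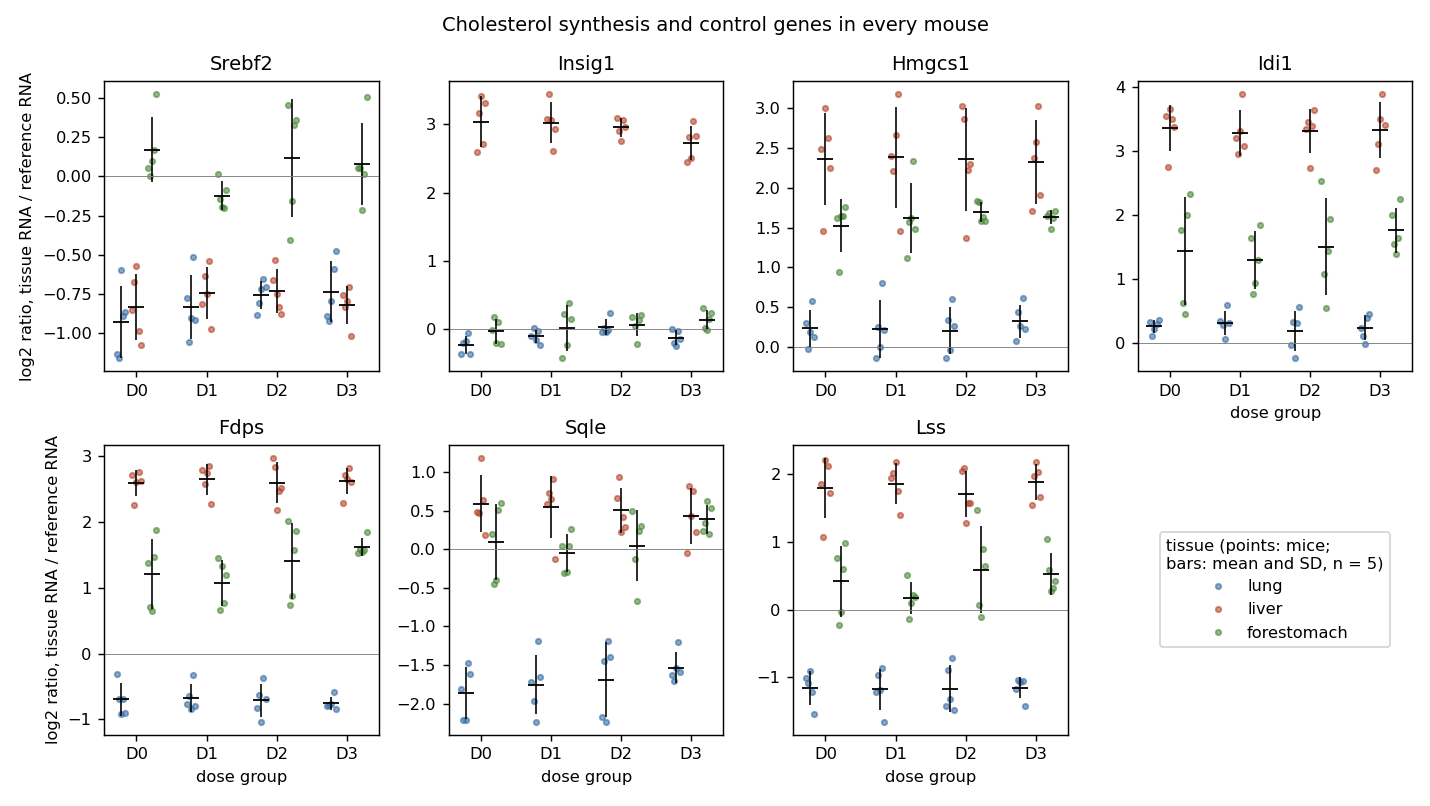
Log2 ratio of tissue RNA to reference RNA for each gene, by dose group, with 1 point per mouse and bars for the mean and SD of 5 mice. Lung lies below liver for every gene but Srebf2, and the D0 and D3 groups of a tissue overlap. The vertical scale differs between genes.

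Insig1 in liver had the change with the smallest adjusted p. Its D0 values were 2.59, 3.17, 3.41, 2.71 and 3.31, and its D3 values were 2.45, 2.81, 2.51, 3.04 and 2.83. The groups overlapped, with 4 of 5 D3 mice below the D0 mean. The change was -0.31 ± 0.16 (SE; limma, adjusted p = 0.46), and with slide as a block it was -0.34 (adjusted p = 0.27). Within the 3 liver slides the difference ran from -0.55 to 0.04, and it was below 0 on 2 of them. The slope of liver Insig1 on dose was -0.013 per mg/kg-bw/day (limma, adjusted p = 0.31), where 0.239% of liver probes passed. In lung, Insig1 was higher by 0.26 ± 0.08 at D2 (limma, adjusted p = 1.0) and by 0.11 ± 0.08 at D3 (adjusted p = 1.0).

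Sqle in lung ran from -2.22 to -1.47 at D0 and from -1.71 to -1.20 at D3. These ranges overlapped, with 5 of 5 D3 mice above the D0 mean. The change was 0.33 ± 0.22 (SE; limma, adjusted p = 1.0) and was 0.33 with slide as a block (adjusted p = 0.25). D3 exceeded D0 on 5 of 5 slides, by 0.02 to 0.67. Srebf2 in lung was higher at D3 by 0.19 ± 0.12 (adjusted p = 1.0), and its dimmer probe by 0.19 ± 0.14. The remaining lung changes at D3 lay between -0.06 (Fdps) and 0.11 (Insig1). Without D0 mouse 1, whose lung array carried muscle and squamous markers, Fdps stood at 0.04 and Insig1 at 0.07. Without D3 mouse 20, whose lung array carried liver markers, Sqle stood at 0.34 and Srebf2 at 0.13, and 0 of 7 passed.

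In forestomach 6 of 7 genes were higher at D3 than at D0, 2 of 7 at D1 and 5 of 7 at D2, but none passed. Of all probes 52.3%, 46.2% and 55.6% were higher. The genes correlated between these mice, so the counts are not separate results. Probes well above background made up 38.0%, 25.7%, 21.4%, 36.3% and 50.8% on the D0 arrays. On the D3 arrays of the same slides they made up 41.5%, 37.2%, 25.6%, 40.8% and 49.4%. Fdps had D0 values of 1.38, 0.71, 0.64, 1.48 and 1.88 and D3 values of 1.54, 1.60, 1.54, 1.57 and 1.85. The D3 values lay inside the D0 range, and their SD was 0.13 against 0.53 at D0. The change was 0.40 ± 0.26 (SE; limma, adjusted p = 1.0). Idi1 changed by 0.33 ± 0.38, Sqle by 0.30 ± 0.23, Insig1 by 0.17 ± 0.14, Hmgcs1 by 0.11 ± 0.18, Lss by 0.11 ± 0.27 and Srebf2 by -0.09 ± 0.16. With the level of the glandular stomach markers as a covariate, 0 of 7 passed and the change of Fdps was 0.44. Without D0 mouse 2, whose forestomach array carried lung as well as glandular markers, Fdps changed by 0.28, Idi1 by 0.12 and Sqle by 0.16, Hmgcs1 and Lss turned to -0.04 and -0.05, and 0 of 7 passed.

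**Figure D3:**
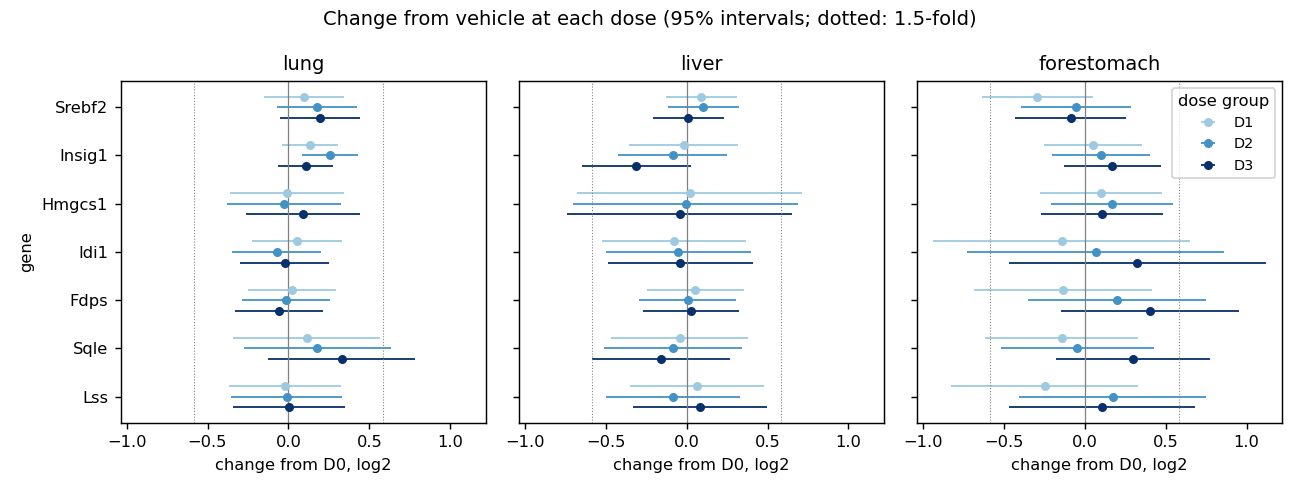
Change of each gene from D0 at D1, D2 and D3 (log2) with 95% intervals from limma, 5 mice per group, in lung, liver and forestomach. Dotted lines mark 1.5-fold. No point lies beyond a dotted line, and the intervals are widest for Idi1 in forestomach and Hmgcs1 in liver.

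The median change of the 7 genes at D3 stood at 0.09 for lung, -0.04 for liver and 0.17 for forestomach, where all probes had medians of 0.01, 0.00 and 0.01. In forestomach, 17 of 18 further sterol synthesis genes were also higher at D3, against 52.3% of all probes, with a median of 0.14 and none passing (the smallest adjusted p was 1.0). At D1 it was 4 of 18 and at D2 8 of 18, against 46.2% and 55.6% of all probes. Sc5d, a late desaturase, had the largest of these changes, at 0.63 ± 0.44 (SE), followed by Hsd17b7 at 0.44 ± 0.55 and Tm7sf2 at 0.40 ± 0.51. Of the SREBP processing genes 1 of 5 was higher there. In lung 10 of 17 sterol synthesis genes were higher at D3 and in liver 9 of 17, against 52.6% and 49.9% of all probes, with medians of 0.00 in both. Members and listed genes were read from the same arrays, so these counts are not independent of each other. In forestomach the listed genes moved with the members between mice, at a median r of 0.69 with the mean of the 7. The 17 of 18 are therefore not 17 separate results. This count was not recomputed without D0 mouse 2, nor with glandular markers or the share of probes well above background taken off.

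The slope on dose passed for 0 of the 7 genes in each tissue, where 0.0% of lung, 0.239% of liver and 0.0% of forestomach probes passed. With slide as a block, 0.306% of lung probes, 2.63% of liver probes and 0.0% of forestomach probes passed, and again 0 of 7 genes in each tissue. At D3 with slide as a block, 0.0677% of lung, 0.0926% of liver and 0.0% of forestomach probes passed, and 0 of 7 genes. The unadjusted p was under 0.05 in 1 of the 21 slopes without the block and in 4 of 21 with it. The shares of all probes above are for adjusted p, so this rise is not set against a background.

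Whether the D3 change differed between tissues was tested directly, and 0 of 21 comparisons passed, as did 0.0% of all probes. The unadjusted p was under 0.05 in 2 of the 21, both of Insig1, again without the share of all probes beside it. The difference in its D3 change was -0.48 ± 0.19 (SE; limma, adjusted p = 1.0) for liver minus forestomach and 0.42 ± 0.19 (adjusted p = 1.0) for lung minus liver.

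Between mice of the same dose, some pairs of these genes correlated and Insig1 was in none of them. Pearson's r was computed for the 21 pairs of genes in each tissue over 20 mice after each dose mean was taken off, 63 pairs in all. It was above 0 in 21 of 21 lung pairs, 20 of 21 liver pairs and 20 of 21 forestomach pairs, with medians of 0.38, 0.48 and 0.33. At a permutation p adjusted over the 63 pairs of 0.05 or less were 5 pairs in lung, 9 in liver and 10 in forestomach. Insig1 passed in 0 of its 6 pairs in each tissue, Srebf2 in 0 of 6 in lung and 1 of 6 in liver, and Hmgcs1 in 0 of 6 in forestomach. Points of a pair share the array, its dyes and its RNA, so the level of r includes what an array does to all its probes. The permutations kept mice within their dose but not within their slide.

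The level of these genes also moved with the slide. The mean of the 7 genes lay above the mean of the dose in 4 of 4 mice on forestomach slides 1 and 5 and in 0 of 4 on slides 2 and 4. In lung it lay above in 4 of 4 mice on slide 3, by 0.13 to 0.35, and in 0 of 4 on slide 2. With slide means taken off beside dose means, r was above 0 in 16 of 21 lung pairs, 20 of 21 liver pairs and 14 of 21 forestomach pairs, with medians of 0.52, 0.59 and 0.29. The pairs that had passed then had values of r from 0.53 to 0.73 in lung, 0.59 to 0.92 in liver and 0.15 to 0.86 in forestomach. These values are given as a description without a test, so how many pairs would pass within slides was not tested.

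Liver had the highest single r of the 63 pairs. Hmgcs1 there ran from 1.37 (D2 mouse 13) to 3.18 (D1 mouse 9) with a median of 2.39 over the 20 livers. Mouse 13 also had the lowest Fdps (2.19) of the 20, and mouse 9 the highest Idi1 (3.89). The SD of Hmgcs1 within dose groups was 0.60, against 0.28 in lung and 0.29 in forestomach.

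Hmgcs1 and Fdps correlated in liver at r = 0.91 (rho = 0.88, permutation p = 2e-05, adjusted p = 0.0013), and r was 0.85 without the 2 mice farthest from the median of Hmgcs1 and 0.92 with slide means taken off. Hmgcs1 and Lss stood at r = 0.84 (rho = 0.78, permutation p = 9e-05, adjusted p = 0.0014; 0.78 without 2 mice), and Hmgcs1 and Idi1 at r = 0.81 (rho = 0.74, permutation p = 0.00021, adjusted p = 0.0020; 0.80 without 2 mice). Lss, whose window carried no match to the sterol regulatory element as spelled, varied with Hmgcs1, whose window did. Insig1 passed with no gene in liver, where its 6 values of r lay between -0.03 and 0.26. Its median r with the others was 0.08 in liver, against 0.80 for Hmgcs1, 0.69 for Fdps, 0.68 for Sqle and 0.62 for Lss. Idi1 had 0.52 and Srebf2 0.24. With slide means taken off, the 6 liver values of Insig1 ran from -0.00 (Idi1) to 0.47 (Lss) and 0.56 (Sqle). Their median was 0.30, against 0.78 for Hmgcs1, 0.72 for Fdps, 0.61 for Sqle, 0.66 for Lss and 0.66 for Idi1. Srebf2, at 0.23, then lay below Insig1. The distance of Insig1 from the others in liver therefore depended on whether slide means were taken off.

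Pairs of enzyme genes also passed in lung. Sqle and Idi1 correlated at r = 0.80 (rho = 0.82, permutation p = 0.00031, adjusted p = 0.0021; 0.72 without 2 mice), and Hmgcs1 and Sqle at r = 0.79 (rho = 0.73, permutation p = 0.00057, adjusted p = 0.0033; 0.69 without 2 mice). Lss passed with Fdps alone in lung (r = 0.61, rho = 0.60, permutation p = 0.018, adjusted p = 0.048; 0.52 without 2 mice). With slide means taken off, these 3 pairs stood at 0.61, 0.62 and 0.73, and Idi1 with Lss, at 0.05 before, stood at 0.75. Neither Insig1 nor Srebf2 passed with any gene there. Without D0 mouse 1, whose lung carried muscle markers, the mean r over the 21 pairs was 0.44, against 0.39 with it. Leaving out any 1 mouse gave a mean r of 0.29 to 0.44 in lung and 0.39 to 0.49 in forestomach.

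**Figure D4:**
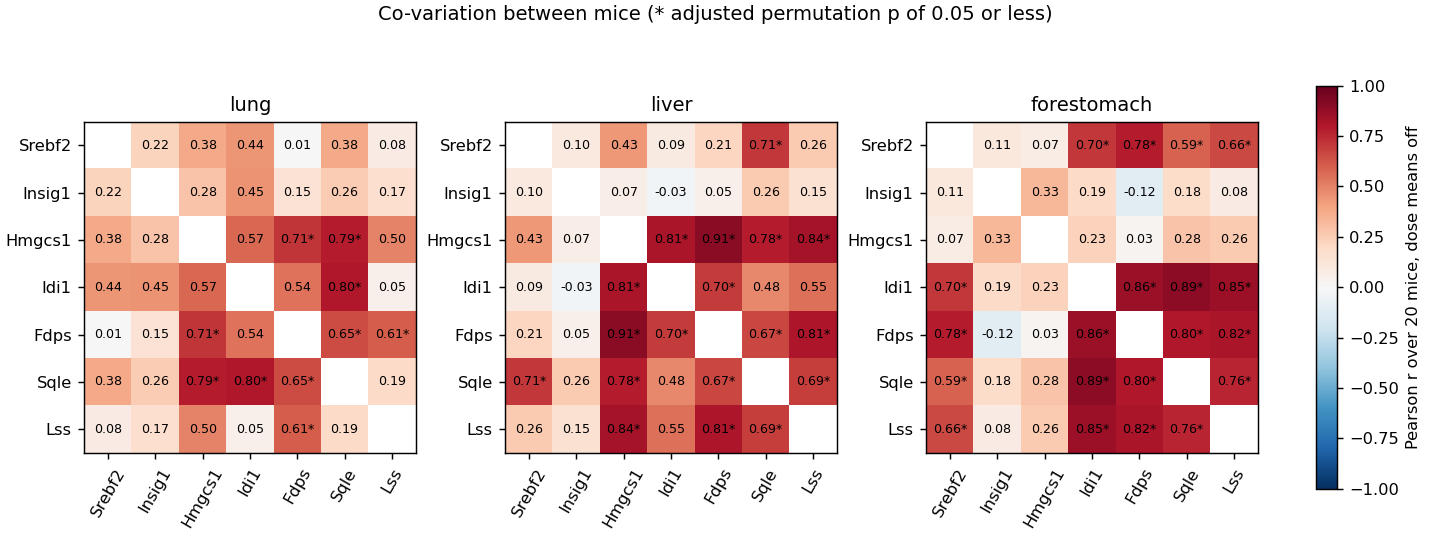
Pearson's r between pairs of the 7 genes over 20 mice in lung, liver and forestomach, after dose means were taken off. Asterisks mark an adjusted permutation p of 0.05 or less, which 5 lung pairs, 9 liver pairs and 10 forestomach pairs reached. The row of Insig1 stays pale in the 3 tissues, and that of Hmgcs1 is dark in liver and pale in forestomach.

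In forestomach the 10 pairs that passed were the 10 among Idi1, Fdps, Sqle, Lss and Srebf2, with Sqle and Idi1 at r = 0.89 (rho = 0.88, permutation p = 6e-05, adjusted p = 0.0013; 0.85 without 2 mice) and Idi1 with Fdps at r = 0.86 (rho = 0.84, permutation p = 0.00022, adjusted p = 0.0020; 0.82 without 2 mice). With slide means taken off, these pairs stood at 0.86 and 0.75, but Srebf2 with Sqle fell from 0.59 to 0.15 and Srebf2 with Idi1 from 0.70 to 0.24. Hmgcs1 passed with no gene in forestomach, and its highest r was 0.33. Whether the correlations differed between tissues was not tested.

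Values that moved with the forestomach pattern were the brightness of the array and some tissue markers. The mean of the 7 genes correlated with the share of probes well above background at r = 0.78 in forestomach, against 0.17 in lung and 0.25 in liver. Squamous markers (6 of 6 with a probe) correlated with it at r = 0.58, fat cell markers (6 of 6) at 0.52 and glandular stomach markers (5 of 6) at -0.51. The mean of the squamous markers ran from 3.98 to 5.15 at D0 and from 4.02 to 5.12 at D3. That of the fat cell markers ran from 0.06 to 5.11 and from 0.42 to 2.79, and that of the glandular markers from 0.10 to 6.07 and from 0.14 to 6.02. The median of the glandular markers was 0.5 at D0, 6.8 at D1, 6.0 at D2 and 3.4 at D3. The dose groups thus differed in glandular content, which the dose comparisons without that covariate do not separate from dose. Single genes ranged from r = -0.72 (Fdps) to 0.34 (Insig1) with the glandular markers, with Hmgcs1 at 0.06. With brightness taken off beside the dose means, the mean r over the 21 pairs fell from 0.45 to 0.27 in forestomach, with 14 of 21 pairs above 0. It was 0.49 in liver (0.45 before) and 0.48 in lung (0.39 before). With the glandular markers taken off instead, the forestomach mean was 0.50. Beyond these values, their part in the forestomach correlations was not tested.

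**Figure D5:**
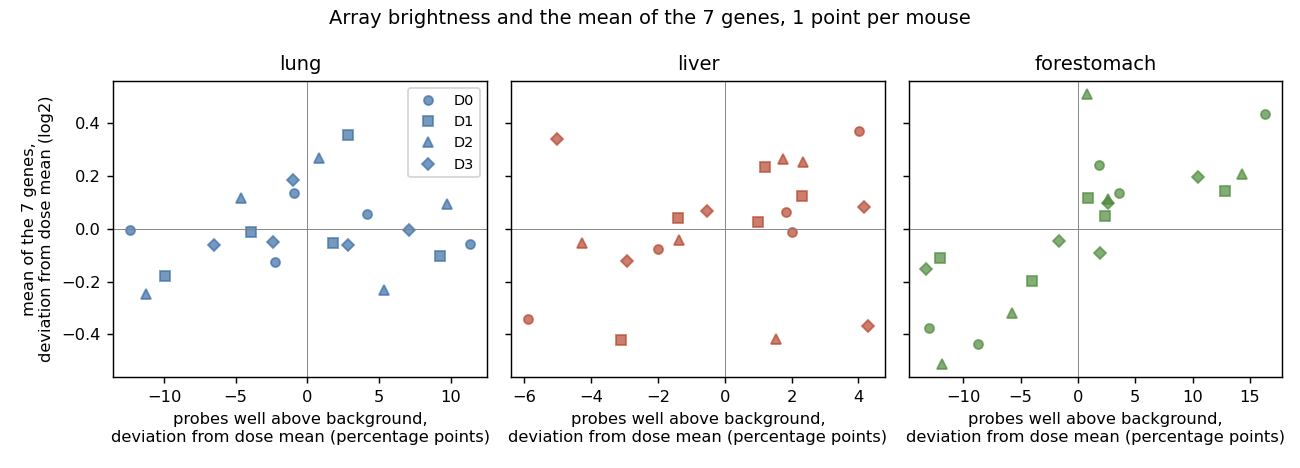
Mean of the 7 genes against the share of probes well above background, 1 point per mouse and symbols by dose group, both as deviations from the mean of the dose group. The points rise together in forestomach (r = 0.78) and show little relation in lung (r = 0.17) and liver (r = 0.25).

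The probes of Srebf2 did not follow each other between mice. Their r was 0.26 in lung but -0.22 in liver and -0.39 in forestomach. The brighter probe had a median r of 0.62 with the other 6 genes in forestomach and 0.24 in liver, and the dimmer probe -0.31 and -0.14. With slide means taken off, the brighter probe had medians of 0.20 and 0.23. With the dimmer probe in its place, the mean r over the 21 pairs was 0.23 in forestomach (0.45 with the brighter), 0.34 in liver (0.45) and 0.31 in lung (0.39). What was found for Srebf2 between mice therefore rests on 1 probe.

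The likeness of other genes to the mean of the 7 was ranked over all probes tested, as a description. In liver the 10 named probes with the highest r over 20 mice were Cyp51 (0.88), Msmo1 (0.87), Hsd17b7 (0.82), Col3a1 (0.82), Fdft1 (0.80), Akap11, Swap70, Cdk12, Nfe2 and Rbm3 (0.74), of 25868 probes. Of these, 4 were on the list of further sterol synthesis genes (Cyp51, Msmo1, Hsd17b7 and Fdft1). In lung the order was led by St14 (0.90), Xrcc5 (0.86) and Arfip2 (0.86), and in forestomach by Mfsd2a (0.91), Gsdmc (0.90) and Fzd6 (0.89). None of the 10 in lung and none of the 10 in forestomach was on a pathway list. The other lung genes were Trim41, Mrpl33, Maats1, Net1, Ugt1a6b, BC021767 and Rsrc2, and the other forestomach genes were Gm10516, Kctd9, Arl6ip4, Kazn, Decr1, Aacs and Adrm1.

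Set against the mean of the other 6 members, Hmgcs1 ranked 1 of 25869 probes in liver (r = 0.92), Sqle 4, Lss 12 and Fdps 12. Idi1 ranked 227 there, Srebf2 1971 and Insig1 10350. In forestomach Idi1 ranked 1 of 24831 (r = 0.90), Sqle 125, Lss 327, Fdps 1016, Srebf2 2384, Hmgcs1 10368 and Insig1 11580. In lung Hmgcs1 ranked 13 of 30876, Sqle 38, Idi1 240, Fdps 604, Srebf2 7239, Insig1 7375 and Lss 9055. The further sterol synthesis genes had a median r with the mean of the 7 of 0.61 in liver, 0.69 in forestomach and 0.21 in lung, where all probes had medians of 0.02, 0.11 and 0.08. Fatty acid synthesis genes, which SREBP-1 is known to drive, had medians of 0.39, 0.65 and 0.31, and bile acid synthesis genes 0.21, 0.63 and 0.20. The 95th percentile of r over all probes was 0.43 in liver, 0.76 in forestomach and 0.56 in lung. Of these medians, that of the sterol synthesis genes in liver alone lay above it.

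The same mouse gave all 3 tissues. Over the 20 mice the mean of the 7 genes correlated between lung and liver at r = 0.41 (rho = 0.38, permutation p = 0.11, adjusted p = 0.34; 0.43 without 2 mice). Between lung and forestomach r was 0.15 (rho = 0.18, permutation p = 0.59, adjusted p = 0.83; 0.08 without 2 mice). Between liver and forestomach it was 0.06 (rho = -0.15, permutation p = 0.83, adjusted p = 0.83; -0.11 without 2 mice). None of the 3 passed, so a level shared by the tissues of a mouse was not detectable with 20 mice.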

How the data were processed

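Tissue RNA (Cy5) was hybridized against universal mouse reference RNA (Cy3) on 60 dual-colour arrays, without dye swaps. The deposited scanner files give the median, background and processed signal intensity of each spot (Feature Extraction 10.7.3.1, array grid on mm9 per the file headers). The deposited log2 ratios had been normalized by the authors with LOWESS on median signals without background subtraction, and processed signals had been background subtracted and dye normalized. Here, log2 ratios of median signals were normalized by loess within arrays (limma 3.58.1, R 4.3.3), outlier spots were left out (0.0358%), none being saturated, and replicate spots were averaged per probe. Against the deposited log2 ratios, r was 0.992 to 0.999 over the arrays. Symbols were taken through RefSeq accessions (26413 of 55681 probes, table of GRCm38.p6, used for names and start-site windows).

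Tests took the probes whose Cy5 signal was well above background on 5 or more of a tissue's 20 arrays (31041 for lung, 25907 for liver, 25107 for forestomach, 33273 for any tissue). Each dose was set against D0, and a slope on dose was fitted, with limma in each tissue. The 12 groups of 5 mice were fitted together for differences between tissues. limma stood in for the permutation test of the study's methods. Calls needed an adjusted p (Benjamini-Hochberg over all probes tested) of 0.05 or less and 1.5-fold, and a slope without a minimum change. Tests were two-sided. Correlations used 100000 permutations of mice within dose groups. The numbers of the mice pair the tissues, since the same animal gave all 3, and mouse as a block was an alternative. The number of arrays limits the precision. On simulated data, 200 probes changed by 1 on the log2 scale at D3 were recovered at 89% (lung), 94.5% (liver) and 71% (forestomach). False calls numbered 4, 8 and 6. The simulated noise was independent between probes, without the slide effects and marker differences that the real arrays share. These rates therefore do not carry over to the real dose comparisons or to changes near 1.5-fold. The members, lists and tests were chosen with earlier results of these data known. Beside the 7 genes, at most 4 genes of a list were named by size among those called, or at most 3 where none was called, and the 10 most alike by r. Other lists (uptake and transport, efflux and storage, bile acid and fatty acid synthesis) and markers of 8 cell types were read as counts and medians. Alternatives were normexp with an offset of 50, processed signals, deposited ratios, Aquantile, no filter or a strict one, a variance trend, slide and mouse as blocks, and leaving out each array.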

Additional observations from a re-analysis of the deposited data

Results flagged for a closer look

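In each of the 84 combinations of gene, tissue and dose, the mouse farthest from the other 4 was examined, and 4 stood apart from its group by the Dixon criterion, where chance alone gives about 1 in 20, or 4.2. Hmgcs1 in the forestomach of D0 mouse 2 was 0.94, against 1.62 to 1.76 in the other D0 mice, and this array also carried glandular stomach markers. Fdps was 1.85 in the forestomach of D3 mouse 20 (1.54 to 1.60 in the others) and -0.59 in the lung of D3 mouse 19 (-0.84 to -0.77). Insig1 was 0.24 in the lung of D2 mouse 15 (-0.05 to 0.02).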

How the results depend on the processing

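The 3 counts of genes called between D0 tissues, 6 of 7 each, ranged from 5 to 7 over 63 recomputations. For liver minus forestomach the count was 5 under quantile normalization of both channels and 7 without liver mouse 5 or forestomach mouse 4 or 5. The 15 dose counts were 0 in 351 recomputations, which says nothing about stability. Of the tissue differences, 437 of 441 recomputed ones kept their direction and their side of the threshold. The exceptions were Hmgcs1 and Sqle for liver minus forestomach (0.55 for Hmgcs1 under quantile normalization of both channels, chosen after seeing the data, and 0.60 to 0.63 for Sqle without 1 of 3 mice). With mouse as a replicate block, Sqle in that comparison had an adjusted p of 0.042 at 0.50, under 1.5-fold, and no call changed. Aquantile leaves ratios as they are by construction. Processed signals moved 4 differences of Insig1 and Lss by over 1.5 times, as given with them. Processed signals shifted the median of all probes for lung minus forestomach to 0.10, and 6 of 7 genes passed there too.

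None of the D3 changes was called, and 32 of 403 recomputed ones changed sign. With 1 mouse left out, the ranges of those were -0.0793 to 0.0387 for Idi1, -0.0954 to 0.0700 for Lss and -0.112 to 0.0403 for Fdps in lung. They were -0.271 to 0.115 for Hmgcs1, -0.192 to 0.114 for Idi1, -0.0492 to 0.0763 for Srebf2, -0.0944 to 0.187 for Lss and -0.0574 to 0.108 for Fdps in liver, and -0.0385 to 0.168 for Hmgcs1, -0.193 to 0.00132 for Srebf2 and -0.0534 to 0.249 for Lss in forestomach. Processed signals gave 0.0454 for Idi1 in lung and 0.00332 for Hmgcs1 in liver, and slide as a block gave 0.0102 for Idi1 in liver.

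The mean r over the 21 pairs was 0.39 in lung, 0.45 in liver and 0.45 in forestomach (jackknife SE 0.14, 0.11 and 0.09). It moved by more than that with the dimmer Srebf2 probe (0.34 in liver and 0.23 in forestomach) and, in forestomach, with slide means (0.29) or array brightness (0.27) taken off, the latter chosen after seeing the data. The causes were not tested.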

Other observations

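Genes around the pathway that no comparison above described differed between tissues of D0 mice as well. Of 8 bile acid synthesis genes, 5 passed the filter on low signals in all 3 tissues, and 4 of these 5 were lower in lung than in liver (19.0% of all probes) and higher in liver than in forestomach (18.2%). Cyp39a1 was not called in either. Hsd3b7, well above background on every D0 array, was 36.6-fold above lung in liver (limma, adjusted p = 2.0e-30). Cyp7a1, Cyp8b1 and Akr1d1 passed the filter through liver alone, which fixes their direction. Cyp7a1, the rate-limiting enzyme of bile acid synthesis, was well above background on none of the 5 D0 lung arrays and was at least 28.2-fold higher in liver (adjusted p = 1.5e-18), a bound from normalized Cy5 signals, in which a dye bias was not tested. Of 6 fatty acid synthesis genes, 6 were lower in lung than in liver, among them Fasn at -2.33 ± 0.33 (SE, log2) and Scd1 at -1.77 ± 0.43. For liver minus forestomach 3 of the 6 were higher, Scd1 at 4.50 ± 0.43, Fasn at 3.04 ± 0.33 (well above background on 3 of 5 forestomach arrays) and Acly at 0.74 ± 0.22. Elovl6, a fatty acid elongase, was lower at -1.38 ± 0.42 (limma, adjusted p = 0.0043).

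Genes of uptake, efflux and storage went both ways. Of 10 genes of uptake and transport that passed the filter in all 3 tissues, 6 were lower in lung than in liver and 3 higher. Of 6 genes of efflux and storage 4 were lower and 2 higher, against 19.0% and 25.4% of all probes. The counts of higher genes were thus near the background. Vldlr, a receptor of the lipoprotein receptor family, was 17.2-fold higher in lung (limma, adjusted p = 1.4e-22; well above background on 2 of 5 liver arrays), and Abcg1, a sterol exporter, was 12.7-fold higher (adjusted p = 6.0e-29). Npc2, which carries cholesterol inside lysosomes, was 7.23-fold higher and Mylip 2.98-fold. Stard4 and Scarb1 were lower in lung, by 5.69-fold and 4.77-fold.

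None of the genes of these lists was called at D3. In liver, 6 of 8 bile acid genes were higher at D3, as were 49.9% of all probes, with a median change of 0.33, against 0.00 over all probes. At D1 it was 6 of 8 and at D2 5 of 8. Akr1d1, a steroid reductase of that route, changed by 0.69 ± 0.27 (SE; limma, adjusted p = 0.32), Cyp8b1 by 0.57 ± 0.34 and Cyp7a1 by 0.50 ± 0.59. In lung, 9 of 10 genes of uptake and transport were higher at D3, 9 of 10 at D1 and 8 of 10 at D2, where 52.6%, 51.4% and 51.6% of all probes were. Scarb1, a lipoprotein receptor, was at 0.34 ± 0.13 at D3 (limma, adjusted p = 0.92). Of 7 genes of efflux and storage 1 was higher at D3, 6 at D1 and 3 at D2.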
